A study of Arabidopsis thaliana with 96 samples.

Results

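Broad accessible regions are the ATAC-seq peaks of 600 bp or more on the 5 nuclear chromosomes of *Arabidopsis thaliana*. They were chosen by the length column of the peak lists, and 19299 of the 1098500 nuclear peaks in the lists of 22 accessions, or 1.76%, are that long. Their lengths, pileups and fold enrichments come from the same peak calls as the length and are therefore given as a description without a test. The series holds leaf samples of natural accessions grown in growth chambers, with 4 lists for each of 24 groups, and each accession stands for 1 genotype with no treatment. The accessions used are Ad-0, Bd-0, Bur, Chat-1, Col-0, Cvi-0, En-2, Est, Gd-1, Gr-1, Hi, Is, Jm, Kil, Kn, Ler-0, Mt, No, Nw, Og, old and Per-1. Tsu-0 was left out for its few tags, and the lists labelled Col-0 untreated, whose headers name naked DNA, served only as a background of Tn5 insertion and read mapping without chromatin. The study's methods set Nw, old and No aside after viewing their coverage, and results over all accessions are given here with them. The labels do not say whether the 4 lists of a group come from separate plants, and nuclei of a whole leaf hold several cell types.

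In ATAC-seq the transposase Tn5 cuts and tags DNA where nucleosomes leave it exposed, and in plant leaves such stretches lie mostly at promoters, where transcription factors and the transcription machinery bind. A peak caller extends each mapped read, here called a tag, to the fragment length and joins neighbouring positions with more tags than the local background. A long peak can therefore be 1 long open stretch or several short ones whose tags run together. At repeated sequences, reads of many copies can also pile up at 1 position.

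Of the peaks of the 22 accessions, 5.17% of the broad ones reached 1000 bp or more. The median length of broad peaks was 676 ± 13.5 bp (SD over 22 accessions), and the longest peak of an accession ranged from 1056 bp in Ler-0 to 2461 bp in Jm. The pileups of the 4 lists of an accession were compared at summits within 50 bp of each other, through the ratio of their squared deviations to those of random draws from 1 library. For broad peaks the median of this ratio was 0.791 over 128 pairs of lists (0.441 to 1.45), so at most pairs the lists differed by less than the sampling noise. The 4 lists of an accession were for that reason treated as 1 sample, with their mean as its value. The lists of an accession agreed less on length than on position. On average over pairs of lists, a peak that was broad in 1 list overlapped a broad peak of another list of the same accession in 44.5% (Ler-0) to 85.7% (Jm) of cases, with a median of 59.1%. A single shorter peak lay there in a median of 27.6% of cases and several shorter peaks in 12.3%. No peak at all was listed in at most 0.383% of cases in any accession.

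The 6 accessions Ad-0, En-2, Hi, Mt, Og and Col-0 were placed on the reference genome TAIR10. The first 5 carry the reference chromosome names, and the summits of Col-0 shifted from those of Og by -138 to 104 bp in windows of 1 Mb, so that Col-0 positions hold within 150 bp. The lists of the other 16 accessions use positions on their own sequences and were not placed on genes. Broad peaks listed in at least 3 of the 4 lists of an accession were joined across accessions where they overlapped. This gave 617 loci, of which 20 were broad in all 6 accessions, 19 in 5 and 30 in 4. The 69 loci broad in at least 4 accessions are 0.220% of the 31383 merged peak regions of the 6 accessions. To show what DNA lies at their centres, the window of 50 bp on either side of the median summit is printed for the first 5 loci of the ranking whose window holds no UTR, leaving out the ribosomal RNA locus, which also has a peak in naked DNA. All 5 were broad in all 6 accessions. Sequences are from the RefSeq copy of the reference (TAIR10.1), plus strand, with capitals at matches on either strand to CACGTG (the G-box bound by bZIP and bHLH factors), TGGGCC (a motif of TCP targets), TTGACC (a W-box form bound by WRKY factors) or TATAAA (the TATA box).
LRB1, chr2:18999202-18999302: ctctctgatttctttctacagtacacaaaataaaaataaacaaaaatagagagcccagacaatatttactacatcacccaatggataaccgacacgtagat
AT5G37540, chr5:14914068-14914168: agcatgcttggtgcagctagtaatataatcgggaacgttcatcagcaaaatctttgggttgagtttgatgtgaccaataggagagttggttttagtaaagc
AT1G09520, chr1:3072601-3072701: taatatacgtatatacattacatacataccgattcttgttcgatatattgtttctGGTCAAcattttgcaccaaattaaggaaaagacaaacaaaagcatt
VHA-A3 and RD19, chr4:18215352-18215452: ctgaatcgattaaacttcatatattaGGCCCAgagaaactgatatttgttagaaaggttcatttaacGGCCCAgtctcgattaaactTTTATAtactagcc
OXS2, chr2:17490044-17490144: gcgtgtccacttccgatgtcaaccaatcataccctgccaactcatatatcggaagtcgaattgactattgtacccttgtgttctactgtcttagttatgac

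The window between VHA-A3 and RD19 held 2 matches to TGGGCC and 1 to TATAAA, and that of AT1G09520 held 1 to TTGACC. Those of LRB1, AT5G37540 and OXS2 held none of the motifs searched. Of the windows of the same length at all broad summits of an accession, 11.9% ± 1.05 held TGGGCC and 6.84% ± 1.24 held TTGACC, against 15.2% ± 1.42 and 6.76% ± 0.295 at the summits of shorter peaks (SD, 6 accessions). TATAAA was in 9.75% ± 3.07 of the broad windows and 15.6% ± 0.967 of the shorter ones. A further 5 loci broad in all 6 accessions had a G-box in the window, and they are printed for that match.
AT2G44660, chr2:18423136-18423236: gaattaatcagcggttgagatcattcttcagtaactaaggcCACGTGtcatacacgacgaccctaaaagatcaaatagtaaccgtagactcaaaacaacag
MGP3 and BIM2, chr1:25941446-25941546: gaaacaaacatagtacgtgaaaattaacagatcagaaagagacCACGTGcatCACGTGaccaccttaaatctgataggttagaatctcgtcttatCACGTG
ABCB23, chr4:14141439-14141539: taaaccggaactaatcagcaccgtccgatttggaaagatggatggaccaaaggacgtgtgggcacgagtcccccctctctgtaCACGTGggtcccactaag
near FLA18, chr3:3697823-3697923: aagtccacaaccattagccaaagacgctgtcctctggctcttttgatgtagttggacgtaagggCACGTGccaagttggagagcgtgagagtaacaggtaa
CSLA02, chr5:7557792-7557892: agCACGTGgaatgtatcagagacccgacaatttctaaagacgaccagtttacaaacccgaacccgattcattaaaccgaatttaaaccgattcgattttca

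The window between MGP3 and BIM2 held 3 G-boxes and each of the other 4 held 1. The window of the AT3G02460 and SAMDC locus also had a G-box but lies in the UTR of AT3G02460 and is not printed. Over all summits, 11.1% ± 2.37 of the windows of broad peaks held CACGTG, against 9.05% ± 1.81 of those of shorter peaks (SD, 6 accessions). A match is a run of letters and was not tested as a binding site.

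The share of nuclear peaks that were broad differed widely between accessions. It was highest in Col-0, at 4.07, 4.02, 3.62 and 3.84% of peaks in the 4 lists, in Jm at 3.55, 3.44, 3.42 and 3.56%, and in Og at 3.26, 3.03, 3.00 and 2.98%. It was lowest in Nw, at 0.157, 0.203, 0.220 and 0.227%, followed by old with a mean of 0.528% and Ler-0 with 0.687%. These 3 low and 3 high accessions are the extremes of this same share, so the gap between them follows from how they were picked. Over the 22 accessions the share averaged 1.77% ± 0.956 (SD), while the SD between the lists of an accession averaged 0.142%. In number, an accession had from 59.5 broad peaks per list in Ler-0 to 754 in Jm. Nw combined the largest number of nuclear peaks, 41298 per list, with the smallest share of broad ones.

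**Figure D1:**
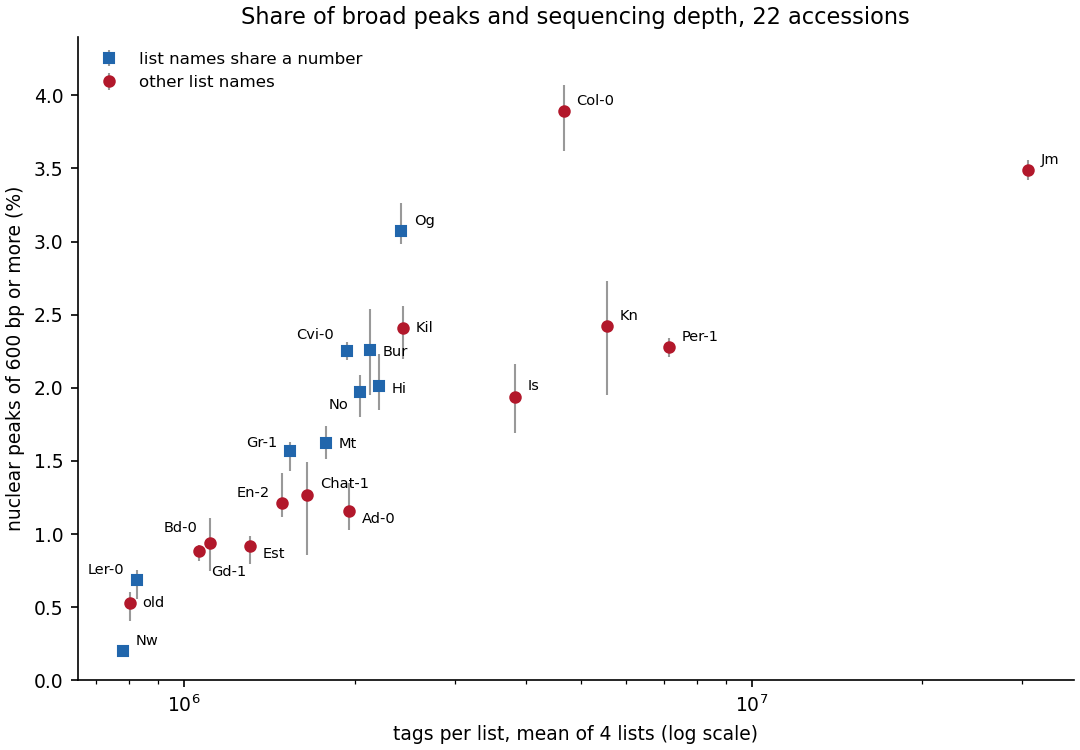
Share of nuclear peaks of 600 bp or more (percent, mean of 4 lists, bars from the lowest to the highest list) against tags per list (log scale) for 22 accessions, with squares where the list names share a number. The share was 0.202% in Nw with 780037 tags and 3.49% in Jm with 30760837 tags, and Col-0 had the highest share, 3.89%, with 4671886 tags.

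The broad share followed sequencing depth. Mean tags per list ranged from 780037 in Nw to 30760837 in Jm, and the share of broad peaks correlated with the log10 of the tags at Pearson's r = 0.809 and Spearman's rho = 0.924 over 22 accessions (permutation tests with 100000 resamples, adjusted p = 1.5e-05 for both, the smallest that 2 passing relations of 3 can give). The log10 number of broad peaks gave r = 0.830 and rho = 0.819 (adjusted p = 1.5e-05 each). Without Jm and Per-1, the 2 accessions farthest from the median depth, r was 0.854 for the share and 0.809 for the number. Without No, Nw and old r was 0.773 for the share. The headers give 9 accessions a file name with the same number, which may mark a batch. Among these the share gave r = 0.942 (permutation p = 0.00012), and among the 13 others it gave r = 0.850 (permutation p = 0.00033). In the 17 accessions with plain chromosome names r was 0.845, and the 5 with reference names were too few for a value. The order was not that of depth throughout. Col-0 had a higher share than Jm with fewer tags, and Og, with 2414618 tags, had 3.07%, against 1.94% in Is with 3829465 tags. When the number of nuclear peaks took the place of the tags, the share gave r = 0.137 (permutation test, adjusted p = 0.820) and the number of broad peaks r = 0.502 (adjusted p = 0.0502). The fragment length, from 104 bp in Jm to 162 bp in No, did not pass the test against the share (r = 0.0394, rho = 0.129, adjusted p = 0.862 and 0.567). Without Jm and Per-1 this r was 0.406 (permutation p = 0.0750), and it was 0.575 in the 9 accessions with the shared number (permutation p = 0.105) and -0.131 in the 13 others (permutation p = 0.670). When broad meant at least 4 fragment lengths in place of 600 bp, a limit that itself grows with the fragment length, this r was -0.735 (permutation test, adjusted p = 5e-05).

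Broad peaks were higher than shorter ones by the measures of the peak caller. The median pileup of broad peaks was 1.97 (Ler-0) to 3.47 (Nw) times that of shorter peaks, and the median fold enrichment, which sets the summit against the background around it, 1.57 (No) to 2.80 (Nw) times. Both ratios were above 1 in all 88 lists. Fold enrichment did not go on growing with length. Its median over accessions was 9.87 for peaks of 600 to under 800 bp, 8.85 for those of 800 to under 1000 bp and 6.22 for those of 1000 bp or more, against 9.88 for peaks of 400 to under 600 bp and 4.36 for those under 200 bp. The 3087 peaks in the 20 bp just inside the limit had a median fold enrichment of 9.73, and the 3631 in the 20 bp just outside had 9.66. In naked DNA the broad peaks had pileups with medians of 545 to 601 tags per list, against 97.5 to 134 tags for its shorter peaks.

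**Figure D2:**
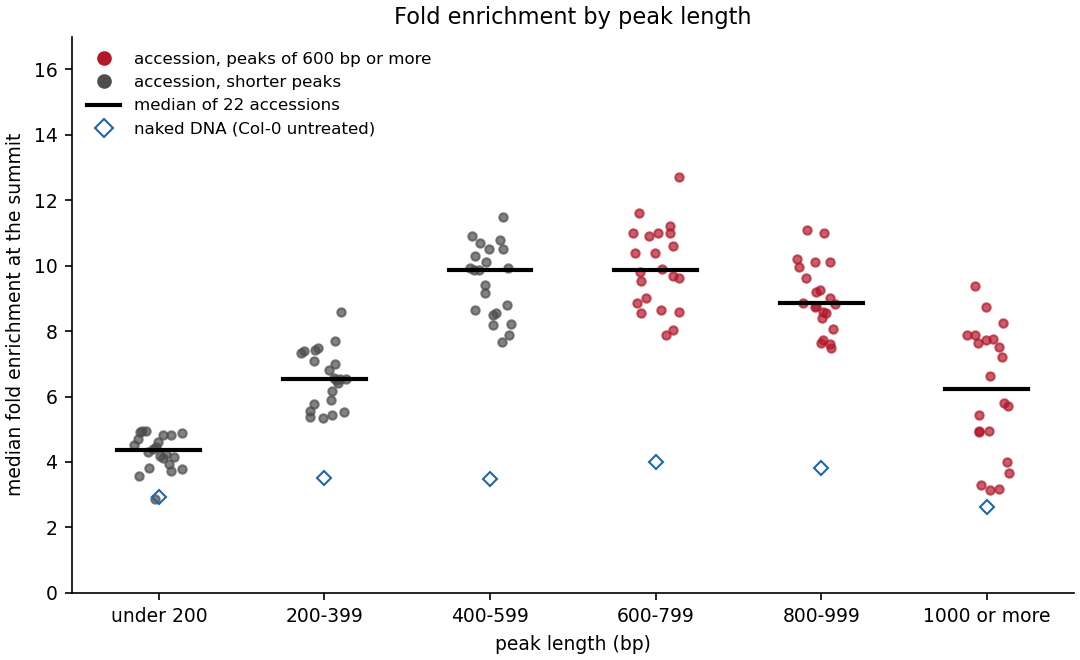
Median fold enrichment at the summit by peak length class, with 1 point per accession (22 accessions, red for 600 bp or more), a bar at their median and open diamonds for naked DNA. The median was 9.87 at 600 to under 800 bp and 6.22 at 1000 bp or more, and naked DNA stayed between 2.61 and 4.01 in every class.

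Broad peaks were spread unevenly over the chromosomes, which could be counted in all 22 accessions. Chromosome 2 held 22.4% ± 4.29 of the broad peaks, against 17.4% ± 0.838 of the shorter ones (SD, n = 22), and its share was higher among broad peaks in 20 of 22 accessions. Chromosome 4 held 19.6% ± 2.63 of the broad peaks and 15.7% ± 0.384 of the shorter ones, and was higher in 21 of 22. Chromosome 1 held 20.3% ± 2.68 and 25.7% ± 0.286, and was higher in 0 of 22. No test was run on these shares. Part of the excess on chromosome 2 lay in a stretch of that chromosome ending at 3600000, chosen after its values were seen, where a copy of mitochondrial DNA is known to sit. Ad-0 had 10.5% and Hi 13.8% of their broad peaks there, Mt 0.150% and the other 3 accessions 2.23 to 3.30%, against 0.298 to 1.98% of shorter peaks. In naked DNA the same stretch held 30.1% of the broad peaks and 24.3% of the shorter ones.

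Where broad peaks lie relative to genes was compared in the 6 accessions on reference positions, and 4 of 6 measures differed from shorter peaks (exact two-sided sign-flip tests over accessions, with 64 sign patterns, adjusted over 6 measures; with 6 accessions the adjusted p of these 4 is the smallest that 4 passing measures allow). Broad summits had a higher GC content and lay more often in the body of a protein-coding gene, in the gene-poor pericentromeres and in a peak of naked DNA. The accessions share the same loci, so they are not independent draws of the genome. The summit was in a gene body, over 500 bp from any start, in 20.5% ± 3.07 of broad peaks and 12.5% ± 0.619 of shorter ones, a difference of 7.96 ± 3.07 percentage points (SD, n = 6) that was positive in 6 of 6 accessions (exact test, adjusted p = 0.04688). Col-0 had the widest gap, 24.4% against 13.2%, and Mt the narrowest, 15.3% against 13.0%. GC content within 100 bp of the summit was 40.3% ± 1.73 in broad peaks and 37.8% ± 0.946 in shorter ones, higher in 6 of 6 (exact test, adjusted p = 0.04688). The pericentromeres held 4.77% ± 1.45 of broad summits and 2.99% ± 0.804 of shorter ones, again higher in 6 of 6 (exact test, adjusted p = 0.04688). With the same bounds on the sequences of all 22 accessions, which only approximates their positions, the means were 4.82% and 3.19%, and 18 of 22 were higher (permutation test, p = 0.00074). Naked DNA peaks held 9.58% ± 8.45 of broad summits and 2.11% ± 1.22 of shorter ones (exact test, adjusted p = 0.04688, higher in 6 of 6), with 21.8% against 4.07% in Ad-0 and 18.6% against 3.16% in Hi, but 1.34% against 0.919% in Mt.

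**Figure D3:**
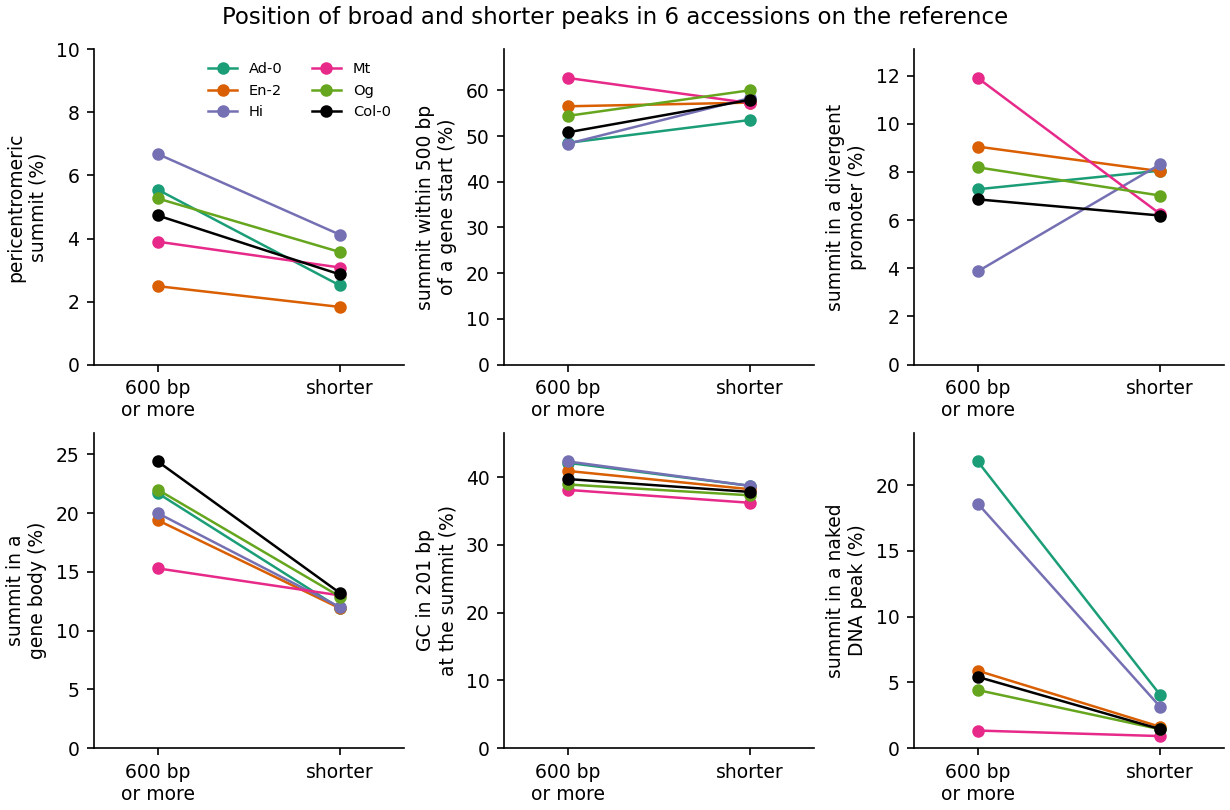
Share of summits in 5 kinds of position and GC content at summits, each in percent, for peaks of 600 bp or more and for shorter peaks of the same accession, with 1 line per accession. The gene body share was 15.3 to 24.4% in broad peaks and 11.9 to 13.2% in shorter ones, and the share in naked DNA peaks reached 21.8% in Ad-0.

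The other measures did not separate the classes. A summit within 500 bp of a protein-coding gene start was found for 53.5% ± 5.52 of broad peaks and 57.4% ± 2.17 of shorter ones, lower in 5 of 6 accessions and higher in Mt (exact test, adjusted p = 0.1500). Against peaks of 300 to under 600 bp alone, or with broad counted from 800 bp, the deficit of -5.88 or -13.5 percentage points passed the test (exact test, adjusted p = 0.03750 each). Between divergent gene starts at most 1000 bp apart lay 7.85% ± 2.64 of broad summits and 7.31% ± 0.947 of shorter ones (exact test, adjusted p = 0.5938). Without Col-0, with 5 accessions, no measure can pass, and with broad counted from 500 bp or as 4 fragment lengths none of the 4 calls above stood (adjusted p from 0.06250 to 0.09375). Without peaks whose summit lay in a naked DNA peak, gene body and GC stayed higher in 6 of 6 accessions at differences of 8.51 and 1.79 (exact test, p adjusted over 5 measures 0.07812), while the pericentromeric difference was 0.791 and positive in 5 of 6 (exact test, adjusted p = 0.1953).

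These positions also changed within the broad class. Of the peaks of 1000 bp or more, 37.7% on average over the 6 accessions had their summit in a naked DNA peak, from 13.6% in Mt to 78.6% in Ad-0, against 6.57% of those of 600 to under 800 bp. Their GC content averaged 44.3%, against 37.8% in peaks under 600 bp. The highest class rests on 14 to 151 peaks per accession over 4 lists.

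Read along the gene start, broad peaks reached further upstream than downstream. Among peaks with the summit within 2 kb of a start, 50.2% of broad ones covered the position 400 bp upstream and 12.9% that 400 bp downstream, against 7.38% and 2.44% of shorter ones (means of 6 accessions). At the start itself the shares were 55.1% and 43.6%. A longer peak covers more positions by its length, so these levels describe the class and were not tested. Relative to the start, the median summit lay at -168 to -94.0 bp in broad peaks and at -83.0 to -30.0 bp in shorter ones, with negative values upstream. Of the bases of broad peaks, 14.1% ± 3.29 were coding sequence, 5.57% ± 1.15 intron and 24.1% ± 2.59 UTR, against 7.68% ± 1.31, 3.46% ± 0.282 and 29.4% ± 2.98 in shorter peaks (SD, 6 accessions), with 28.3% coding in the nuclear genome.

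**Figure D4:**
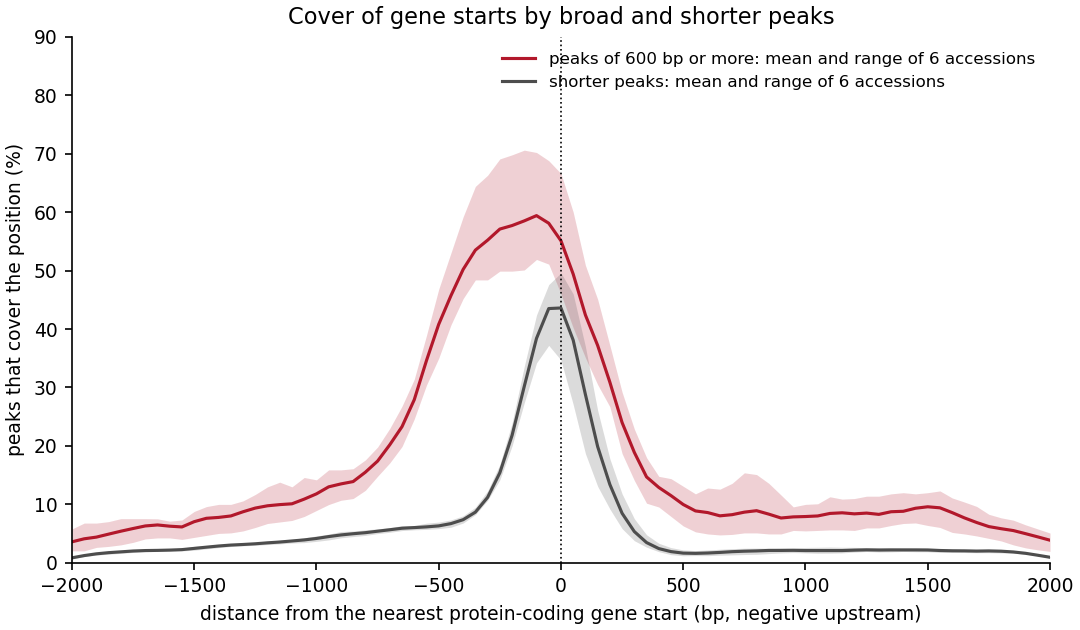
Percent of peaks that cover each position from 2 kb upstream to 2 kb downstream of the nearest protein-coding gene start, for peaks of 600 bp or more and for shorter peaks (line: mean of 6 accessions, band: lowest to highest). At 400 bp upstream the means were 50.2% and 7.38%.

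Motif matches per kb of whole peaks were counted on both strands, without a test, for 7 motifs that the loci were not chosen by. TGGGCC had 1.24 ± 0.117 matches per kb in broad peaks and 1.62 ± 0.184 in shorter ones, lower in 6 of 6 accessions, with 0.189 in the genome. CACGTG had 0.831 ± 0.127 and 0.884 ± 0.225 per kb, higher in broad peaks in 1 of 6, with 0.122 in the genome. The GA repeat GAGAGAGA had 0.491 ± 0.183 and 0.873 ± 0.105, AAACCCTA (the telo-box of ribosomal protein promoters) 0.105 ± 0.0371 and 0.193 ± 0.0433, and TATAAA 1.43 ± 0.280 and 1.88 ± 0.0997, each lower in 6 of 6. Only AAAATATCT, the evening element of clock-regulated promoters, was denser in broad peaks in 6 of 6 among these 7 motifs, at 0.141 ± 0.0196 and 0.0864 ± 0.00412 per kb. It was in 7.24% of broad peaks and 2.1% of shorter ones, which are also shorter searches. In the windows at the summits it was in 0.687% ± 0.320 of broad peaks and 0.748% ± 0.0647 of shorter ones, the opposite direction. TTGACC had 0.685 ± 0.0277 and 0.666 ± 0.0316.

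The number of loci followed the accession. Broad in at least 3 of 4 lists were 47 regions in Ad-0, 88 in En-2, 79 in Hi, 210 in Mt, 303 in Og and 458 in Col-0. Of all 617 loci, 326 (52.8%) were broad in 1 accession, 194 of them in Col-0, 74 in Og, 52 in Mt and 1 to 3 in each of the others. At these, the other 5 accessions had a shorter peak in 70.2% of 1630 cases, a broad peak in 1 or 2 lists in 20.1% and no peak in 9.63%. Conversely, 76.6% of the regions of Ad-0 were broad in at least 4 accessions, against 15.1% of those of Col-0. These shares follow in part from the number of regions. With 458 regions and 69 loci broad in at least 4 accessions, 15.1% is the highest share that Col-0 could have. Of the 69 loci broad in most accessions, Col-0 was broad at 69, Og at 68, Mt at 60, En-2 at 57, Hi at 45 and Ad-0 at 36. The loci were chosen from these same accessions, so these counts restate in part which of them had the most broad regions. Every list had a peak at 408 of the 414 pairs of such a locus and an accession. In the 41 pairs with no broad peak, 17 had at least 2 peaks in a list, so that a broad peak elsewhere stood against a split one. This order of accessions is also that of their numbers of broad peaks per list. It was not that of depth throughout. Mt with 1778078 tags per list and En-2 with 1485678 came before Hi with 2206120 and Ad-0 with 1951617. The parts of depth and of the sequence used for mapping in this order and in the numbers of loci per accession were not tested.

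The 69 loci lay on all chromosomes, with 12, 17, 14, 15 and 11 on chromosomes 1 to 5. Of these, 41 contained a protein-coding gene start, 5 contained 2 or more, and 38 had the median summit within 500 bp of a start. The last count is near the share in general, 53.5% of all broad and 57.4% of shorter peaks (means of 6 accessions). They overlapped 96 annotated genes (0.253% of 37899), among them 80 protein-coding ones (0.292% of 27432). These are overlaps with the span merged over accessions. The broad regions of single accessions reached some of these genes in few accessions, such as MPK9 and ECT5 in 1 each. Of the 69, 4 overlapped a naked DNA peak, as did 39 of all 617 loci (6.32%). At the other 65 the median pileup was 0.830 to 10.5 times the median of the shorter peaks of the same list, with a median of 3.21, and at these 4 it was 5.20 to 70.2 times, both counted over the accessions in which the locus was broad.

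**Figure D5:**
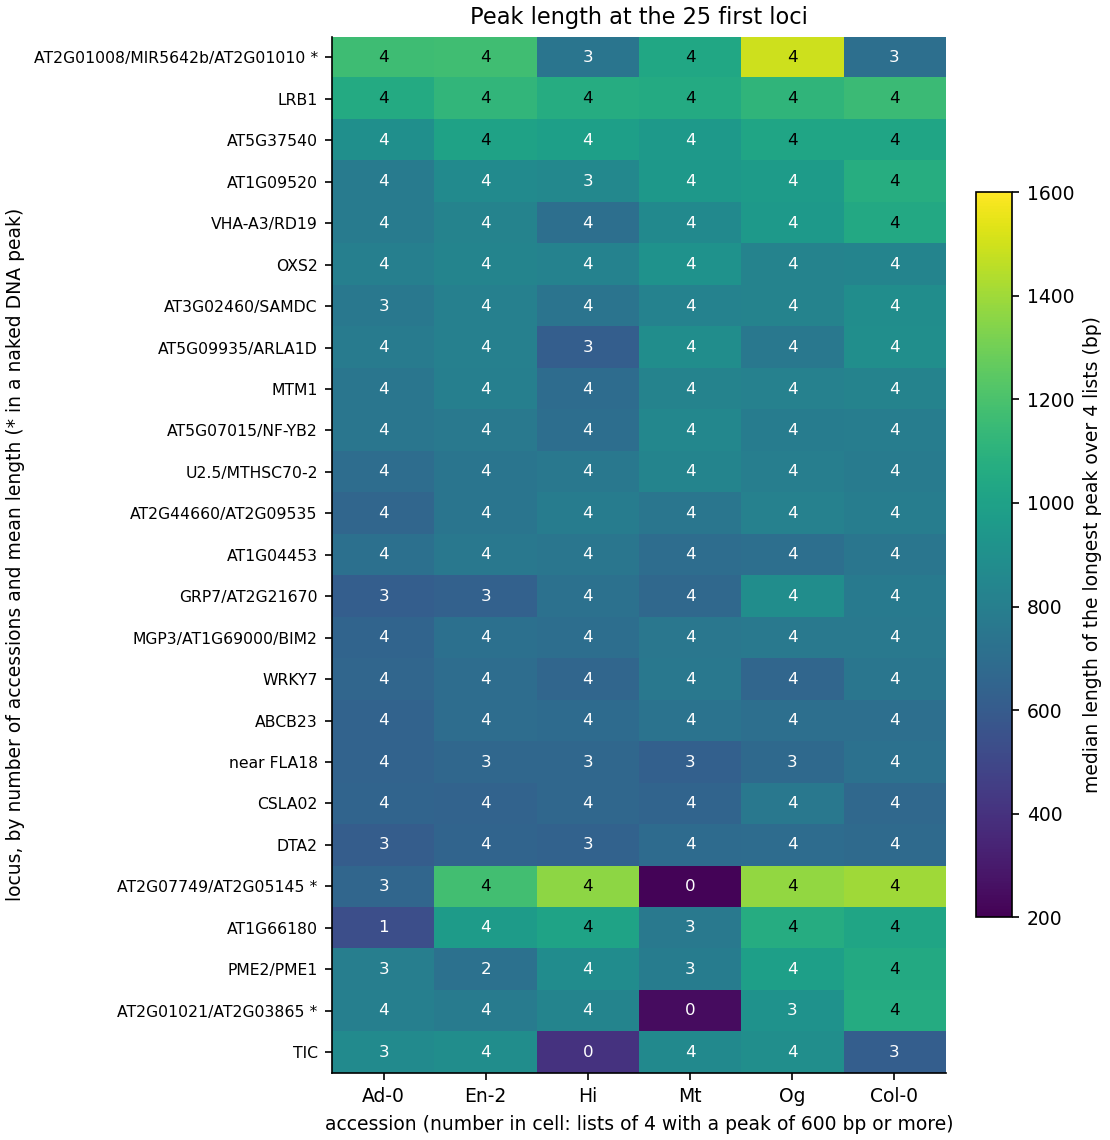
Median length over 4 lists of the longest peak at the 25 first loci, in rows by number of accessions and mean length, for 6 accessions in columns. Numbers in the cells are the lists of 4 with a peak of 600 bp or more, and asterisks mark loci that overlap a naked DNA peak. The LRB1 locus was broad in 4 of 4 lists of all 6 accessions, and TIC in 0 of 4 in Hi.

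The first 25 loci in the ranking are named throughout. The loci near GI and EDA12 and those at AT3G20362, WAVH1, NCED6, AT1G79480, AT4G37420, WRI1, UBQ10, EBF1 and APX1 rank lower and were chosen after their values were seen. The longest locus outside naked DNA that was broad in all 6 accessions lay between LRB1 and GBF3 (chr2:18998619-18999795). LRB1 is an adaptor of a ubiquitin ligase that acts in red light signalling, and GBF3 is a bZIP factor that binds the G-box. The locus took in the 3′ end of LRB1, and its summit lay at -928 bp from the start of GBF3. The peak was 977, 1101, 1061 and 1051 bp long in Ad-0, 1068, 1102, 1150 and 1146 bp in En-2, and 1085, 1049, 1037 and 1119 bp in Hi. It was 1088, 1055, 1034 and 1056 bp in Mt, 1108, 1119, 1175 and 1080 bp in Og, and 1157, 1184, 1116 and 1147 bp in Col-0. All 24 lists were thus within 977 to 1184 bp, although the pileup ran from 35 to 45 tags in Hi and from 137 to 153 tags in Col-0. Pileup is not scaled for depth. Against the median of shorter peaks of the list it was 1.90 times in Hi, 4.52 times in Col-0 and 5.17 times in En-2.

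Loci at gene starts made up most of the rest, by the position of the summit near the share of peaks in general. NF-YB2, a subunit of the NF-Y complex that binds CCAAT boxes, had 787, 725, 737 and 758 bp in Ad-0 and 796, 792, 781 and 797 bp in Col-0, with the median summit at -241 bp from the start. Its pileup was 5.0 (Mt) to 9.77 (En-2 and Col-0) times the median of shorter peaks of the list. The locus of OXS2, a zinc finger protein of stress responses, was 780 to 835 bp long in Ad-0 and 807 to 929 bp in Mt, with 806 to 859 bp in Col-0. SAMDC, which makes the donor for polyamine synthesis, had its start in a locus (chr3:508289-509173) that also covered the 3′ end of AT3G02460, a gene of the Rab-GAP family, and 71.2% of the locus was UTR of these genes. The summit, at -241 bp from the SAMDC start, lay within AT3G02460. The SAMDC locus was broad in 4 of 4 lists in 5 accessions and in 3 of 4 in Ad-0, where the remaining list had 392 bp. Further starts in loci broad in all 6 accessions were those of ARLA1D, a small GTPase of the ARF-like group, MTM1, a mitochondrial carrier linked to manganese, and MTHSC70-2, a mitochondrial Hsp70 whose locus also covered the U2.5 snRNA gene. ABCB23, a mitochondrial ABC transporter, BIM2, a bHLH factor of brassinosteroid signalling, the glycosyltransferase gene AT2G44660 and AT1G09520, annotated as an uncharacterized protein, had theirs in such loci too. These are starts within the locus merged over accessions, and the broad peaks themselves overlapped AT2G44660 in 2 accessions, AT1G09520 in 4 and OXS2 in 5. The peak at AT1G09520 differed between lists, with 488, 869, 874 and 844 bp in Hi and 1197, 977, 936 and 1164 bp in Col-0.

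GRP7, an RNA-binding protein whose transcript cycles with the circadian clock, shared its locus (chr2:9266134-9267022) with a tRNA-Leu gene. The peak was 647, 627, 605 and 591 bp in Ad-0 and 759, 621, 571 and 649 bp in En-2, so both had 1 list under the limit. It was 922, 809, 851 and 975 bp in Og, above every list of Ad-0 and En-2. TIC, a clock component, was broad in 5 accessions, with 889, 927, 893 and 879 bp in Og. In Hi it was 436, 403, 405 and 393 bp, with 2 peaks in a list and pileups of 103 to 121 tags, against 97 to 126 tags in Og. The height at the summit was therefore close in the 2 accessions while the length was not. In Col-0 the lists had 623, 929, 613 and 598 bp at TIC, a spread that crosses the limit. Upstream of GI, another clock gene, a locus with no gene in it had its summit at -955 bp from the start of GI. It was broad in 5 accessions at 580 to 716 bp and had 516 to 586 bp in Ad-0, so the accessions lay on both sides of the limit by short distances.

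Other loci lay inside genes. In 10 of the 69 at least 50% of the bases were coding sequence. In 7 of these 10 a gene at the locus had a transcript without introns, which long coding stretches favour by construction. Among all protein-coding genes 21.5% have no intron. That share is per gene, while a locus with several genes counted if any of them had such a transcript. The difference was not tested. AT5G37540, annotated as an aspartyl protease, was covered in its 3′ part (79.8% coding, 20.2% UTR). Its peak was 889, 907, 845 and 921 bp in Ad-0 and 1022, 1021, 1017 and 1023 bp in Col-0, and broad in 24 of 24 lists. AT1G66180, with the same annotation, was covered in the same way (77.9% coding, 22.1% UTR) with 1079, 1011, 1059 and 1121 bp in Og, but 544, 524, 523 and 604 bp in Ad-0. WAVH1, a RING-type ubiquitin ligase of root growth, NCED6, an enzyme of abscisic acid synthesis, AT4G37420 and AT1G79480 had loci that were 100% coding. NCED6 was broad in 4 of 6 accessions, with median lengths of 884 bp in Hi, 870 bp in Mt, 880 bp in Og and 992 bp in Col-0, against 374 bp in Ad-0 and 354 bp in En-2. DTA2 was covered by a locus of 87.5% coding sequence in all 6 accessions. The 3′ part of WRKY7, a transcription factor gene, was covered in all 6 (29.9% coding, 70.1% UTR), with 654, 669, 684 and 633 bp in Ad-0 and 722, 738, 758 and 798 bp in Col-0. The loci in CSLA02, which makes glucomannan of the cell wall, and in WRI1, a factor of oil synthesis, lay within introns entirely. CSLA02 was broad in 24 of 24 lists at 601 to 795 bp, and WRI1 in 13 of 24. Between the facing 3′ ends of VHA-A3, a subunit of the vacuolar proton pump, and RD19, a cysteine protease of drought responses, a locus of 1076 bp (chr4:18214929-18216004) was broad in 24 of 24 lists, at 692 to 1081 bp.

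Of the 4 loci that overlap naked DNA peaks, 3 had pileups of 7.78 to 70.2 times the median of shorter peaks, and AT2G07749 had 2.41 to 7.78 times. Where these loci were broad the lowest value was 5.20, so the lower values of AT2G07749 come from outside the accessions in which it was broad. They are not on the same base as the range given for the other loci. The first in rank, at the end of chromosome 2 (chr2:3123-5476), covered the 18S ribosomal RNA gene AT2G01010, of which the genome has many copies. Its peak was 1100, 1114, 1226 and 1220 bp in Ad-0 and 710, 508, 896 and 708 bp in Col-0, and 779, 436, 707 and 2223 bp in Hi, so its length spread most among the 20 loci broad in all 6 (SD of the medians over accessions 296 bp, against 23.2 to 120 bp at the others). Its pileup, 547 to 591 tags in Ad-0, was 34.3 times the median of shorter peaks there, and naked DNA reached 6831 tags. The neighbouring locus at AT2G01021 (chr2:6391-7572) had 774 to 834 bp in Ad-0 and 176 to 380 bp in Mt. AT2G07749, annotated as an RNA polymerase of a mitovirus and within the stretch of mitochondrial DNA on chromosome 2, had 1898, 1424, 1320 and 1296 bp in Og and 132, 194, 230 and 320 bp in Mt. The locus at AT3G20362 and the pseudogene AT3G20365 had 1216 to 1345 tags in Hi, 66.3 times the median of shorter peaks, with 626 to 633 bp. In Mt neither AT2G01021 nor AT2G07749 was broad in any list. All 4 have a peak in every naked DNA list, and the part of read mapping in them was not tested.

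Of the remaining named loci, the pectin methylesterase genes PME2 and PME1, which modify cell wall pectin, had a locus of 949 to 1015 bp in Og and 464 to 822 bp in Ad-0. The noncoding RNA gene AT1G04453 had 692 to 743 bp in Og and 735 to 758 bp in Col-0. The locus with no gene near FLA18, an arabinogalactan protein of the cell wall, had its summit at -785 bp from the start, and 20 of its 24 lists were broad. A second locus with no gene (chr2:15099133-15100509), at -5061 bp from the start of EDA12, was broad in 4 accessions. It was 1038, 1186, 1171 and 1442 bp long in Mt and 1347, 1315, 1340 and 1340 bp in Col-0. In Ad-0 it was 726, 422, 409 and 483 bp long, with up to 3 peaks in a list. Other loci of lower rank included UBQ10, a polyubiquitin gene of steady expression, EBF1, an F-box protein of ethylene signalling, and APX1, which removes hydrogen peroxide. UBQ10 was broad in 4 of 6 accessions, with a median length of 926 bp in Og and 284 bp in Ad-0.

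Gene families were then counted by the share of their members that a locus overlapped, with the counts given as a description. At loci broad in most accessions, which overlapped 0.292% of protein-coding and 0.253% of all genes, lists of this size are near 0 by the background alone. Here 15 of 21 lists had 0 members, among them the core clock (0 of 23), photosystem, antenna and Rubisco small subunit genes (0 of 61), light signalling (0 of 56), MYB (0 of 125), NAC (0 of 100) and ribosomal proteins (0 of 344). These zeros depend on which genes a list holds. TIC, LRB1 and MYBL2, a MYB-like gene, overlap loci broad in most accessions. They are not counted in the clock, light signalling and MYB lists. The other 6 lists were WRKY with 1 of 71 (WRKY7), tRNA genes with 3 of 625, miRNA genes with 1 of 326, small nuclear and nucleolar RNA with 1 of 369 (U2.5), rRNA with 1 of 4 and long noncoding RNA with 6 of 3780, or 0.159%. The miRNA gene, MIR5642b, was reached by the broad regions of 2 accessions only. At loci broad in any of the 6 accessions, which overlapped 2.29% of protein-coding and 2.05% of all genes, the photosystem list had 5 of 61 (8.2%: LHCB2.1, LHCB2.2, LHCB5, LHB1B2 and PSBX) and light signalling 4 of 56 (7.14%: BBX17, SPA1, COL9 and PIL6). The antenna proteins LHCB2.1 and LHCB2.2 are near-identical copies, so their reads may be shared. SAUR genes had 0 of 80, ERF and DREB factors 0 of 50, MYB 1 of 125 (MYB30) and ribosomal proteins 2 of 344 (0.581%). The tRNA genes had 28 of 625 (4.48%) and small nuclear and nucleolar RNA genes 14 of 369 (3.79%). The leaf label was checked with marker genes. A peak within 500 bp of the start was listed in at least 4 of 6 accessions for 4 of 5 mesophyll markers. The same held for 0 of 4 trichome, 0 of 4 guard cell and 0 of 2 phloem companion cell markers, which are leaf cell types too. It held for 0 of 3 root, 0 of 3 flower, 0 of 3 meristem and 1 of 4 seed markers. These counts have no share over all gene starts beside them. None of the markers was covered by a locus broad in most accessions.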

How the data were processed

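The authors mapped ATAC-seq reads with Bowtie 1.2.2 and called peaks per list with MACS2 2.1.2 (tools and the build TAIR10 per the submitters' processing notes). Per the file headers, calls used no control, kept duplicates and had a q-value of 0.05. The paper describes mapping to a separate assembly for every accession. The lists of Ad-0, En-2, Hi, Mt and Og nevertheless carry reference chromosome names and were read here as TAIR10 positions, while Col-0 and the rest have plain names. What part this plays in differences between accessions was not tested. The study's methods name a looser threshold for the peaks they used, so these lists differ from that set. The deposited lists give position, length, pileup (a signal in tags, not scaled between libraries), the authors' fold enrichment (a ratio to local background), and -log10 p-value and q-value. Depth was 768413 to 31077560 tags per list, within 3.57% of the accession mean, and no counts outside peaks were used. Organelle peaks were left out. Tests were permutation correlations (100000 resamples) over 22 accessions and exact sign-flip tests over 6, with Benjamini-Hochberg adjustment, in Python 3.11.15 with NumPy 2.4.6 and pandas 2.3.3, and were tested on simulated data. A pericentromere is the stretch around the minimum of gene density under 0.5 of the median. The first 25 loci, ranked by accessions and then mean length, were named with the genes they overlap (or the nearest within 1 kb), as were family members at a locus. Members and lists were chosen with earlier results of these data known.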

Additional observations from a re-analysis of the deposited data

Results flagged for a closer look

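In 66 groups of 4 lists (the share of broad peaks, their number and the ratio of fold enrichments in 22 accessions), 6 lists lay far from the other 3, where chance gives about 3.30. En-2 replicate 1 had 1.42% broad peaks and 163 of them, with 1.12 to 1.15% and 125 to 131 in the other lists. Gr-1 replicate 1 had 1.43%, with 1.60 to 1.63% in the others. Kn replicate 1 had 309 broad peaks, with 406 to 423 in the others, and Og replicate 3 had 409, with 443 to 448. In Nw replicate 4 the fold enrichment of broad peaks was 2.92 times that of shorter ones, with 2.74 to 2.77 in the others.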

How the results depend on the processing

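Of 131 alternative values for 11 results, 99 kept their direction and their side of the threshold or stayed close. No paired analysis was possible because the 4 lists of an accession counted as 1 sample and their numbers pair no samples across accessions. Counting broad peaks from 500 bp gave a mean share of 4.36% and 238 loci broad in most accessions, and the differences were 0.770 for pericentromeres, 5.30 for gene bodies, 2.09 for GC and 5.0 for naked DNA, none past the test. From 800 bp the share was 0.358%, the loci 11, the gene start difference -13.5 (past the test), the divergent promoter difference -3.05 (reversed), and r with fragment length -0.0402 (reversed). At 4 fragment lengths the share was 3.11%, the loci 117, r with fragment length -0.735 (reversed) and the differences 1.24, 6.88, 2.40 and 6.91 for pericentromeres, gene bodies, GC and naked DNA, none past the test. Without Col-0 these 4 were 1.76, 7.32, 2.63 and 8.17, where 5 accessions cannot pass. Without peaks in naked DNA peaks, chosen after seeing the data, they were 0.791, 8.51 and 1.79, short of the adjusted threshold. Against peaks of 300 to under 600 bp the gene start difference was -5.88 (past the test) and the divergent promoter difference -1.19 (reversed). With the number of peaks in place of tags, r was 0.137 for the share and 0.502 for the number. Without Ad-0, En-2, Hi, Mt and Og, r with fragment length was -0.0674 (reversed). Loci numbered 119 with 2 of 4 lists and 20 in all 6 accessions. Without each replicate number they were 49 to 52, since all 3 remaining lists had then to agree, and no other call changed. The cause of the other changes was not tested. In lists of low depth a long region may be split or missed, so that a locus not listed as broad is not shown to be closed.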

Other observations

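The lists of naked DNA had broad peaks of their own, 54, 38, 30 and 31 of 580, 668, 754 and 743 nuclear peaks. Of their 153 broad peaks, 83 lay on chromosome 2, and the longest had 3511 bp. Tsu-0 had 0 broad peaks.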
